A study of Macaca fascicularis with 20 samples.

Results

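CD11b single-positive natural killer (NK) cells were set against CD27 single-positive NK cells from the spleen of cynomolgus macaques (Macaca fascicularis). The arrays were chosen by their titles: 5 carried CD27lo CD11b+ NK cells and 4 carried CD27+ CD11blo NK cells, 9 of the 20 arrays of the series. All 56918 expressed probes were tested, and 19829 of them matched a named gene. These gave 12192 genes, each represented by its matched probe of highest mean signal. The question was how the transcripts of the 2 subsets differ when no stimulus is given.

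NK cells are innate lymphocytes that kill infected or transformed cells with perforin and granzymes. CD27 is a costimulatory receptor that binds CD70, and CD11b is an integrin subunit that pairs with CD18 to bind complement fragments and endothelial ligands. In mice, surface CD27 and CD11b order NK cells by maturity, with CD27 single positives earlier and CD11b single positives later. RGS2 limits signalling from G protein-coupled receptors, and CRTAM is an adhesion receptor of activated T and NK cells.

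Splenocytes had been cryopreserved and were thawed, stained and sorted into lysis reagent with no stimulation in between. All NK cells came from a live CD45+ gate without CD3, CD14, CD20 and HLA-DR and were NKG2A+ CD8a+. The series also holds 5 arrays of double-positive and 4 of double-low NK cells, which share the estimate of spread, and 2 B cell arrays that were not used. The CD11b single-positive arrays were replicate 1 (Cambodia, male, 4 years), 2 (Vietnam, male, age unknown), 3 (Vietnam, male, 11 years), 4 (Singapore, male, 5 years) and 5 (Singapore, female, 18 years). The CD27 single-positive arrays were replicate 1 (Cambodia, male, 4 years), 2 (Vietnam, male, age unknown), 3 (Vietnam, male, 10 years) and 4 (Singapore, female, 18 years). The labels call these biological replicates but do not say which arrays share an animal, so p-values measure the spread between these samples. Animals of different origin, age and sex, and a surface gate whose purity is not given in the sources used here, limit what each group represents.

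Amplified product from 50 ng of RNA was labelled with Cy3 and read on 3 slides. With 5 and 4 arrays, precision is limited by their number. The array's 75th percentile of intensity lay between 578.2 and 1307.9 units in CD11b single positives and between 817.9 and 1438.8 units in CD27 single positives. The share of probes well above background was 88.0% to 93.9% in CD11b single positives, against 83.3% to 94.8% in CD27 single positives. On the first slide both CD11b single-positive arrays (622.4 and 914.8 units) were dimmer than both CD27 single-positive arrays (1334.8 and 1313.5 units). The first slide held replicates 1 and 2 of both subsets. Of the arrays compared, the second slide held CD11b single-positive replicate 3 and CD27 single-positive replicates 3 and 4. On the third slide were CD11b single-positive replicates 4 and 5, beside double-positive replicates 4 and 5. It held no CD27 single-positive or double-low array. Levels are log2 of the processed signal minus the array's 75th percentile, so 0 is that percentile. Differences are CD11b single positives minus CD27 single positives, with limma standard errors.

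The sort could be followed only in part. CD27 itself stood at 3.16, 2.55, 3.20, 3.83 and 3.12 in CD11b single-positive replicates 1 to 5, against 4.87, 3.66, 4.07 and 4.68 in CD27 single-positive replicates 1 to 4. The ranges overlapped only because CD11b single-positive replicate 4 lay above CD27 single-positive replicate 2. The difference of -1.15 ± 0.43 is in the direction of the gate and did not pass (adjusted p = 0.848). The CD11b gene ITGAM and the NKG2A and CD8a genes KLRC1 and CD8A had no matched probe, so that side of the gate could not be checked. PTPRC, which encodes CD45, averaged 3.86 ± 0.80 in CD11b single positives (SD, n = 5) and 4.52 ± 0.59 in CD27 single positives (SD, n = 4), a difference of -0.66 ± 0.47, or -0.35 without CD11b single-positive replicate 1. Its 4 probes ran from -1.56 to -0.62. CD3D, whose protein the gate removes, overlapped between the subsets, from -0.82 to 2.76 in CD11b single positives and from -0.11 to 2.43 in CD27 single positives.

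No gene and no probe passed a Benjamini-Hochberg adjusted p of 0.05 in limma (0% of 56918 probes). At an unadjusted p under 0.05 stood 657 genes (5.39%), 294 with a positive difference (2.41%) and 363 with a negative one (2.98%). Among all probes 2893 did so (5.08%), 1409 higher (2.48%) and 1484 lower (2.61%) in CD11b single positives. All 5 CD11b single-positive arrays lay above all 4 CD27 single-positive arrays for 114 genes (0.935%), and below them for 146 genes (1.2%). Everything named below is therefore a measured value and not a called change. The arrays of the 2 subsets were about as alike between as within subsets: Pearson r over probes ran from 0.731 to 0.889 within CD11b single positives (10 pairs), from 0.835 to 0.892 within CD27 single positives (6 pairs) and from 0.727 to 0.922 between them (20 pairs). The median probe SD was 0.82 in CD11b single positives and 0.64 in CD27 single positives.

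The counts rested on single arrays. Without CD11b single-positive replicate 5, 10 probes passed, and without CD27 single-positive replicate 3, 1 probe did; leaving out any other of the 9 arrays gave 0. Without CD11b single-positive replicate 4, the probes at an unadjusted p under 0.05 numbered 3840 higher and 2112 lower, while all arrays together gave the 1409 and 1484 above. Without replicate 1 of CD11b single positives they were 882 and 989, and without replicate 1 of CD27 single positives the higher ones were 775. Without CD11b single-positive replicate 5 the lower ones were 935. With a donor label (origin and sex, with the replicate number or, for the Singapore animals, the age) as a block, 0 probes passed, and 1794 probes higher and 2349 lower had an unadjusted p under 0.05.

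A small shift lay under all comparisons. The median difference over all genes was 0.19, and 60.8% of genes had a positive difference. This background moved with the arrays used: over all expressed probes the median was 0.195, but 0.11 without CD11b single-positive replicate 1, 0.32 without CD11b single-positive replicate 4 and 0.33 with slide as a block. The median over all genes was 0.50 on the first slide and 0.19 on the second, and in the dimmest quartile 0.92 and 0.34. With all arrays it ran from 0.33 in the quartile of genes with the dimmest probes through 0.19 and 0.14 to 0.10 in the quartile with the brightest (3048 genes each). Genes with all CD11b single-positive arrays below all CD27 single-positive arrays made up 0.23%, 0.689%, 1.15% and 2.72% of these quartiles from dim to bright. The opposite separation was found for 1.05%, 1.08%, 0.82% and 0.787%. Separated genes that were lower in CD11b single positives were thus concentrated among bright probes.

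**Figure D1:**
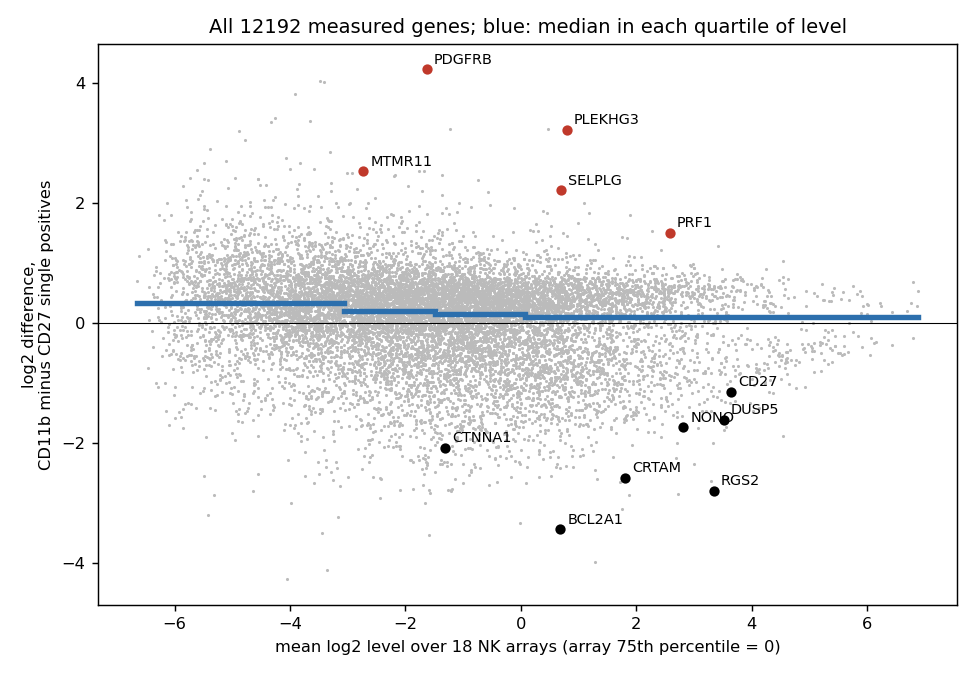
Each grey point is 1 of 12192 genes, with its mean log2 level over the 18 NK arrays on the horizontal axis and the log2 difference, CD11b minus CD27 single positives, on the vertical axis. Blue lines mark the median of each quartile of level, from 0.33 on the dim side to 0.10 on the bright side; named genes higher in CD11b single positives are red and those lower are black.

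The lowest adjusted p was 0.156, shared by 13 probes with differences of 3.15 to 5.30. Of these 13, 2 had a matched gene, and both lay in PLEKHG3, a guanine nucleotide exchange factor that binds actin. PLEKHG3 stood at 2.12, 2.80, 1.78, 2.67 and 0.34 in CD11b single-positive replicates 1 to 5, against -0.64, -1.47, -2.15 and -0.84 in CD27 single-positive replicates 1 to 4. Every CD11b single-positive array lay above every CD27 single-positive array, and replicate 5 was the lowest of its group. The difference was 3.22 ± 0.58, a 9.29-fold higher mean, and the other probe gave 3.18. Without replicate 5 it was 3.62 with an adjusted p of 0.025. Other changes moved the probes away from the threshold. The lowest limma adjusted p of any probe was 0.782 without CD27 single-positive replicate 2. It was 0.594 without CD11b single-positive replicate 2 and 0.67 with slide as a block. The PLEKHG3 difference was 3.51 on the first slide and 3.28 on the second.

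MTMR11, a member of the myotubularin family, came next. Its levels were -1.85, -1.76, -1.36, -2.06 and -1.07 in CD11b single positives, against -4.15, -3.45, -4.87 and -4.12 in CD27 single positives. The arrays did not overlap and the gap between the nearest arrays exceeded a log2 of 1. The difference was 2.53 ± 0.49 (adjusted p = 0.206).

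SELPLG encodes the P-selectin ligand PSGL-1, on which leukocytes roll along activated endothelium. It stood at 0.63, 1.36, 1.91, 2.54 and 2.14 in CD11b single positives, against -0.66, -1.94, 0.04 and 0.59 in CD27 single positives. The groups just failed to overlap, since CD11b single-positive replicate 1 and CD27 single-positive replicate 4 were almost level. The difference was 2.21 ± 0.53 (adjusted p = 0.848).

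PRF1 encodes perforin, the pore-forming protein of cytotoxic granules. Its levels were 2.51, 2.88, 4.03, 4.15 and 4.11 in CD11b single positives, against 2.35, 2.39, 2.52 and 0.87 in CD27 single positives. The first CD11b single-positive array lay just below CD27 single-positive replicate 3, so the ranges overlapped. The difference of 1.51 ± 0.44 was 0.33 on the first slide and 2.33 on the second, and 1.15 with slide as a block.

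Of the other 8 genes of lowest p on the positive side, 4 lay near background in CD27 single positives. SENP5, a SUMO protease, was well above background on all 5 CD11b single-positive arrays and on 0 of the CD27 single-positive arrays. Under the main processing it was at least 3.23-fold higher in CD11b single positives. This bound sets the mean of CD11b single positives against the background level of the CD27 single-positive arrays. It depends on the processing: the log2 difference of SENP5 was 3.20 in the main fit and ran from 1.30 to 3.58 over the alternatives. ZNF449, a zinc finger protein, was well above background on 5 CD11b single-positive arrays and 1 CD27 single-positive array, with a difference of 3.82 ± 0.99. COL11A1, a fibrillar collagen chain, was so on 5 CD11b single-positive and 2 CD27 single-positive arrays (3.41 ± 0.83), as was DNMBP, an exchange factor for CDC42 (4.01 ± 1.19). For these 3 the arrays did not overlap, but their low side rests on dim spots.

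PDGFRB, a receptor kinase of pericytes and other stromal cells, spanned -1.85 to 2.12 in CD11b single positives and -8.08 to -1.77 in CD27 single positives, with a difference of 4.22 ± 1.22. It was well above background on 5 CD11b single-positive arrays and 3 CD27 single-positive arrays. Without CD27 single-positive replicate 2, the array at -8.08, the difference was 2.84. The other stromal and endothelial genes are given with the markers of other cell types. AFAP1L2, an adaptor of tyrosine kinase signalling, had a difference of 1.66 ± 0.44, and its 4 probes ran from 1.21 to 1.66. SYNJ2BP, a protein of the outer mitochondrial membrane, had 1.82 ± 0.53. ATP1B2, a subunit of the sodium pump, ranged from -0.63 to -0.16 in CD11b single positives and from -2.08 to -1.17 in CD27 single positives without overlap (1.26 ± 0.37).

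**Figure D2:**
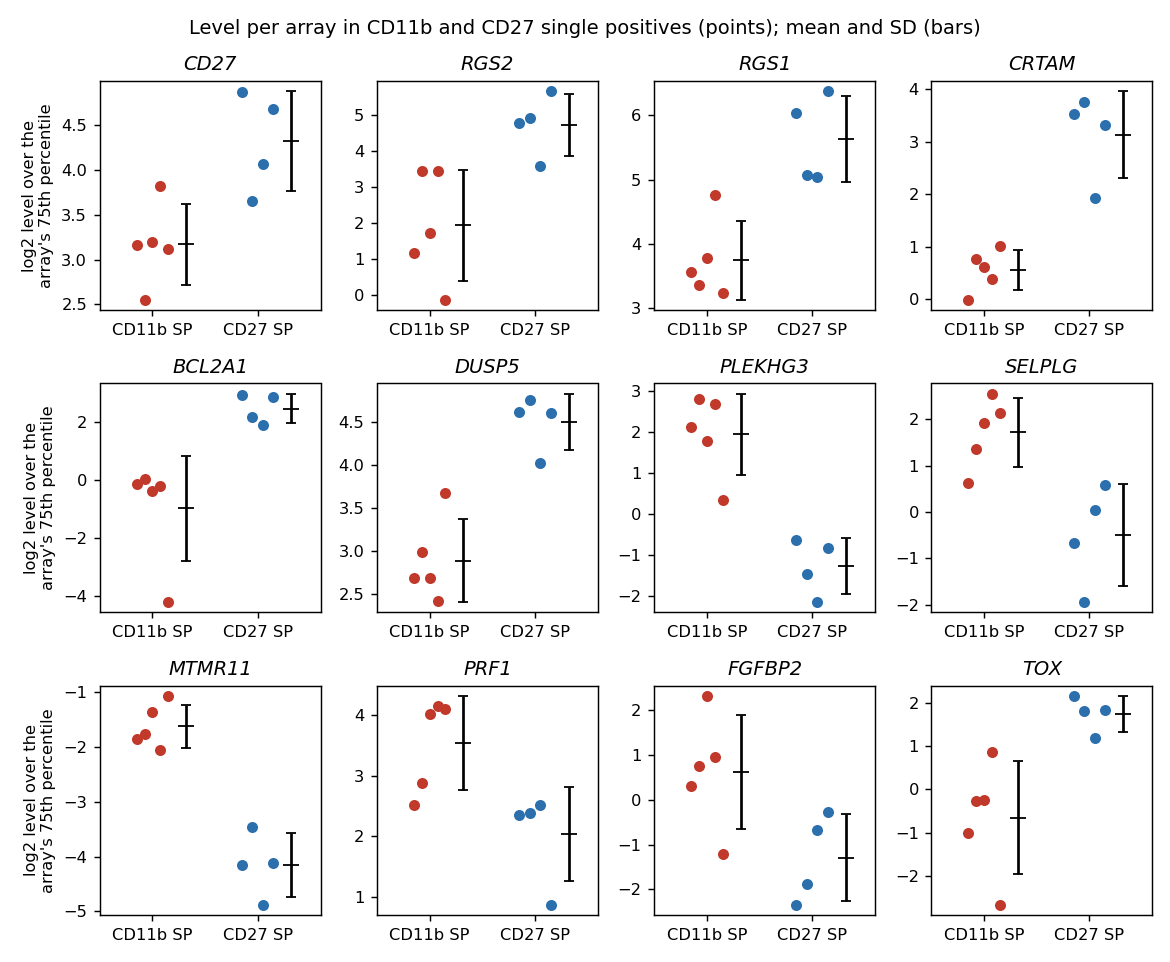
Points are single arrays, with the log2 level (array 75th percentile = 0) on the vertical axis, 5 CD11b single-positive arrays on the left and 4 CD27 single-positive arrays on the right of each panel; bars are mean and SD. PLEKHG3 separates the subsets upward, while RGS2, CRTAM and DUSP5 separate them downward; CD27 overlaps by 1 array.

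CRTAM, which was not a marker of the sort, was among the 12 genes of lowest p on the negative side. It stood at -0.01, 0.77, 0.61, 0.39 and 1.01 in CD11b single positives, against 3.53, 3.76, 1.92 and 3.32 in CD27 single positives. All CD11b single-positive arrays lay within about a log2 unit of each other and below every CD27 single-positive array, of which replicate 3 was the lowest. The difference was -2.58 ± 0.65 (adjusted p = 0.848), -3.26 on the first slide and -2.01 on the second.

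RGS2 stood at 1.15, 3.44, 1.73, 3.44 and -0.13 in CD11b single positives, against 4.77, 4.91, 3.57 and 5.65 in CD27 single positives. CD11b single-positive replicates 2 and 4 came close to CD27 single-positive replicate 3 without reaching it. The difference was -2.80 ± 0.69, and the 2 slides gave -2.54 and -2.88. RGS1, which likewise speeds the shutdown of G protein signals, ranged from 3.24 to 4.77 in CD11b single positives and from 5.04 to 6.37 in CD27 single positives (-1.89 ± 0.59). GNAQ, the alpha subunit of Gq, ranged from -0.79 to 0.19 in CD11b single positives and from 0.56 to 1.68 in CD27 single positives (-1.35 ± 0.62). These were the 3 members without overlap among 19 measured regulators of G protein signalling. Of all genes 1.2% were lower without overlap, and 2.72% in the brightest quartile. Of the 19 regulators, 9 lay in the brightest quartile and 14 had a negative difference (median -0.27).

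DUSP5, a nuclear phosphatase of ERK kinases, had the lowest p on this side. Its levels were 2.69, 2.99, 2.68, 2.42 and 3.67 in CD11b single positives, against 4.62, 4.76, 4.03 and 4.61 in CD27 single positives. The groups did not overlap, and CD11b single-positive replicate 5 was nearest to the CD27 single positives. The difference was -1.61 ± 0.36 (adjusted p = 0.676). NONO, an RNA-binding protein of paraspeckles, stood at 1.28, 1.82, 2.63, 2.65 and 2.05 in CD11b single positives, against 3.99, 3.15, 3.30 and 4.86 in CD27 single positives. Both of its probes were lower, by -1.74 ± 0.39 for the brighter one and -1.62 for the other.

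BCL2A1, a survival protein of the BCL2 family and a target of NF-kB, had the largest negative difference among these genes. It stood at -0.13, 0.05, -0.39, -0.19 and -4.20 in CD11b single positives, against 2.93, 2.17, 1.89 and 2.85 in CD27 single positives. The groups did not overlap with or without CD11b single-positive replicate 5, which lay far below the others. The difference was -3.43 ± 0.81, and -2.59 on the first slide and -2.76 on the second, neither of which holds that array.

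CTNNA1, the alpha-catenin that links cadherins to actin, ranged from -3.46 to -1.26 in CD11b single positives and from -0.65 to -0.0042 in CD27 single positives (-2.08 ± 0.51). ZFP36L2, which binds AU-rich elements and speeds mRNA decay, ranged from 1.25 to 3.35 in CD11b single positives and from 3.44 to 4.43 in CD27 single positives (-1.75 ± 0.46). PRR7, a transmembrane adaptor, was at -1.77 ± 0.47. None of these 3 overlapped between subsets. PAG1, an adaptor that recruits the inhibitory kinase CSK, overlapped through CD11b single-positive replicate 4 (-2.11 ± 0.55). The protein-coding loci LOC102129449 (-2.23 ± 0.52) and LOC102118724 (-2.66 ± 0.66) also separated without overlap and carry no gene name in the annotation.

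Gene lists place these genes among others of similar role. The lists were drawn up with earlier results known, PLEKHG3, RGS2, CRTAM and others included, so separation of a list is a description and no test was run on one. Beside each list stands the background of all genes, with a median of 0.19 and 39.2% negative with all arrays, and a median of 0.50 on the first slide. Counts of members without overlap stand beside 0.935% of all genes higher and 1.2% lower in CD11b single positives. In the brightest quartile the lower share was 2.72%. In bulk RNA, fewer cells of a type and less RNA per cell cannot be told apart. Some genes belong to more than 1 list.

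Among 15 measured genes of early or CD56bright-like NK cells, 13 had a negative difference and the median was -1.01. GPR183, a receptor for oxysterols that positions lymphocytes in lymphoid tissue, stood at -2.40, -1.38, -0.35, -1.50 and -2.94 in CD11b single positives, against 0.22, 0.76, 0.32 and 1.65 in CD27 single positives. The arrays did not overlap (-2.45 ± 0.65), and CRTAM was the other member without overlap. COTL1, which binds actin filaments, had -3.09 ± 1.01 and AREG, a ligand of the epidermal growth factor receptor, had -2.80 ± 0.99. AREG was well above background on 2 of 5 CD11b single-positive arrays and 3 of 4 CD27 single-positive arrays. GZMK, the granzyme typical of CD56bright cells in humans, averaged 2.87 ± 0.95 in CD11b single positives and 4.14 ± 0.73 in CD27 single positives (SD; n = 5 and 4) with overlap (-1.27 ± 0.66). The mean over the list lay between -1.42 and -0.25 in CD11b single positives and between -0.05 and 0.58 in CD27 single positives.

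Among 16 measured genes of mature effector NK cells, 12 had a positive difference and the median was 0.69, or 0.34 without CD27 single-positive replicate 4. PLEKHG3 was the one member whose arrays did not overlap. FGFBP2, secreted by cytotoxic lymphocytes, stood at 0.32, 0.77, 2.31, 0.96 and -1.21 in CD11b single positives, against -2.34, -1.88, -0.68 and -0.27 in CD27 single positives. It overlapped through CD11b single-positive replicate 5 alone (1.92 ± 0.69). LGALS1, the sugar-binding galectin-1, had 1.21 ± 0.55. TBX21, the T-bet factor needed for NK maturation in mice, had 0.92 ± 0.55, but 0.24 without CD27 single-positive replicate 4, which lay at 0.36 beside 2.64 to 3.84 on the others of its subset. S1PR1, the receptor for exit into blood and lymph, had 0.92 ± 0.58. S1PR1 was 1.65 on the first slide and -0.29 on the second. The mean over the list lay between -0.30 and 0.85 in CD11b single positives and between -0.74 and -0.06 in CD27 single positives.

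The cytotoxic granule genes did not follow PRF1 as a group. Of 16 measured, 9 had a positive and 7 a negative difference, and the median of 0.17 was close to that of all genes. Beside GZMK, the granule proteoglycan gene SRGN was at -0.80 ± 0.43 and STX11, which is needed for granule release, at -1.71 ± 1.0. STXBP2, the partner of STX11, was at 0.84 ± 0.52, or 1.27 without CD11b single-positive replicate 4. Their median was -0.036 without CD27 single-positive replicate 2 and 0.53 without CD11b single-positive replicate 1. The mean over the list lay between 1.30 and 2.51 in CD11b single positives and between 1.70 and 2.23 in CD27 single positives, so the narrower range lay inside the wider one.

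Receptors of the target-cell contact were mixed. Of 18 activating receptors and adaptors 11 were negative, with a median of -0.52, or -0.13 without CD11b single-positive replicate 1. PLCG2, a phospholipase below activating receptors, stood at -1.28, -0.42, -0.32, 0.08 and -3.50 in CD11b single positives, against 1.35, 1.12, 0.46 and 0.89 in CD27 single positives, without overlap (-2.04 ± 0.77). NCR3, the receptor NKp30, had 0.74 ± 0.42. Of 7 inhibitory receptors 4 were positive (median 0.36). SIGLEC9, an inhibitory lectin for sialic acid, ranged from 0.81 to 1.46 in CD11b single positives and from -0.04 to 0.38 in CD27 single positives without overlap (0.89 ± 0.38). KLRD1, the CD94 partner of NKG2A, overlapped (-0.62 ± 0.52, or -0.32 without CD27 single-positive replicate 4).

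Of 25 chemokine and adhesion receptors 14 were positive, with a median of 0.33, and SELPLG was the one without overlap. CCR1, a receptor for inflammatory chemokines, had 2.37 ± 0.98, and its CD11b single-positive arrays spanned -2.01 to 3.21. Of 12 chemokines and cytokines 7 were positive (median 0.27). Of 16 cytokine receptors 9 were positive (median 0.08). The members named here are negative ones, and positive members stood at a similar limma p, so they do not show a lean of the list. The shared receptor chains of interleukin 2 and 15 were at -0.83 ± 0.47 (IL2RG) and -1.01 ± 0.60 (IL2RB). IL2RB was -0.41 without CD11b single-positive replicate 1, its lowest array, and -0.17 on the second slide. TGFBR2, the signalling receptor for TGF-beta, was at -1.32 ± 0.77 and TNFRSF1B, a receptor of tumour necrosis factor, at -1.47 ± 0.71. Of 17 measured genes of TGF-beta signalling 10 were positive (median 0.32).

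Of 13 tissue residency genes 10 were negative, and their median was -0.68. RGS2, CRTAM and RGS1 were the 3 without overlap. CD69, which binds S1PR1 and holds lymphocytes in tissue, stood at 0.85, 2.24, 3.58, 3.92 and 3.41 in CD11b single positives, against 5.08, 4.03, 4.13 and 2.85 in CD27 single positives. Its low CD11b single-positive arrays were both on the first slide, where the difference was -3.00, while on the second it was 0.09. Without CD11b single-positive replicate 1 it was -0.73. DUSP6, a cytoplasmic phosphatase of ERK kinases, was at -1.42 ± 1.37, or -0.76 without CD11b single-positive replicate 3. The mean over the list lay between -0.44 and 0.49 in CD11b single positives and between 0.67 and 1.30 in CD27 single positives. The list's median was -0.29 with slide as a block and -0.48 without CD11b single-positive replicate 5.

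Of 28 NK transcription factors 20 were negative, with a median of -0.66. TOX, a nuclear factor needed for NK development in mice, stood at -1.0, -0.26, -0.23, 0.88 and -2.67 in CD11b single positives, against 2.16, 1.83, 1.19 and 1.84 in CD27 single positives. IRF8, an interferon-regulatory factor, stood at -2.28, -0.69, -0.56, 1.11 and 0.96 in CD11b single positives, against 2.30, 2.70, 1.28 and 1.45 in CD27 single positives. Neither overlapped, and CD11b single-positive replicate 4 came nearest in both (TOX -2.41 ± 0.72, IRF8 -2.22 ± 0.71). ID3 and ID2, inhibitors of E proteins, had -1.97 ± 0.83 and -1.02 ± 0.52. ID3 was -3.14 on the first slide and 0.46 on the second. The list's median was -0.36 without CD11b single-positive replicate 5.

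Of 34 measured immediate early genes, which are induced within minutes of stimulation, 29 had a negative difference and the median was -1.37. Of these 34 genes 11 had an unadjusted limma p under 0.05, all negative. The share of all genes negative at that p was 2.98%, and 6.07% in the brightest quartile. In 24 of the 34 the probe lay in the brightest quartile, where 21 of 24 were negative (median -1.17, against 0.10 for all genes there). Arrays did not overlap for DUSP5, ZFP36L2, BTG1, GADD45A and KLF10, the last being named after its value was seen. GADD45A, a stress sensor that binds PCNA, stood at 0.96, 1.64, 0.57, 1.34 and -0.29 in CD11b single positives, against 2.92, 3.60, 2.19 and 4.86 in CD27 single positives (-2.55 ± 0.90). BTG1, which restrains proliferation, had -1.53 ± 0.50 and the zinc finger factor KLF10 had -1.41 ± 0.67.

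NR4A2, an orphan nuclear receptor induced by receptor signalling, overlapped by way of CD11b single-positive replicates 2 and 4 and CD27 single-positive replicate 3 (-2.61 ± 0.77). Its 3 probes ran from -2.72 to -2.61. ZFP36, tristetraprolin, which degrades cytokine mRNAs, had -1.33 ± 0.40. The mean over the list lay at 0.58, 1.45, 0.98, 1.69 and 0.43 in CD11b single positives, against 2.74, 2.84, 1.58 and 1.65 in CD27 single positives. The first-slide CD27 single-positive arrays were the highest, and the second-slide ones lay at the top of the CD11b single-positive range. The list's median was -1.98 on the first slide and -0.55 on the second.

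NF-kB response genes had a median of -1.18, with 13 of 16 negative. CD83, a surface glycoprotein of activated leukocytes, stood at 0.70, 2.32, 1.99, 1.56 and -0.74 in CD11b single positives, against 3.74, 5.16, 3.60 and 3.52 in CD27 single positives, without overlap (-2.84 ± 0.77). BCL2A1 was the other member without overlap. The NF-kB subunit gene NFKB1 had -1.45 ± 0.60 and the inhibitor gene NFKBIB had -1.78 ± 0.72, while NFKB2 was at 0.59 ± 0.33. The list's median was -1.73 on the first slide and -0.31 on the second.

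Phosphatases of the dual-specificity family, which shut off MAP kinases, had a median of -0.70, with 11 of 13 negative. That median was -0.36 without CD27 single-positive replicate 1 and -1.47 without CD27 single-positive replicate 4. DUSP2, an ERK phosphatase of activated lymphocytes, had -2.31 ± 0.92 and was highest on both first-slide CD27 single-positive arrays, at 3.39 and 2.65. DUSP10, which acts on JNK and p38, had -1.49 ± 0.68 and DUSP3 had -2.20 ± 0.93. The list's median was -1.16 on the first slide and 0.14 on the second. Heat shock and chaperone genes had a median of -0.80, with 13 of 15 negative and none without overlap. That median was -0.52 without CD27 single-positive replicate 2. The endoplasmic reticulum chaperone gene HSPA5 had -1.41 ± 0.52, its co-chaperone gene DNAJC3 had -1.68 ± 0.58, and HSPH1 of the HSP110 family had -1.73 ± 0.79. DNAJC3 was -1.03 without CD11b single-positive replicate 1, and HSPH1 was -1.02 and DUSP3 -1.40 without replicate 5 of that subset. Here the first slide gave a median of -1.46 and the second 0.19. The first-slide CD11b single-positive arrays were also dimmer than the first-slide CD27 single-positive arrays. The part of array signal, slide or animal in these slide differences was not tested.

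**Figure D3:**
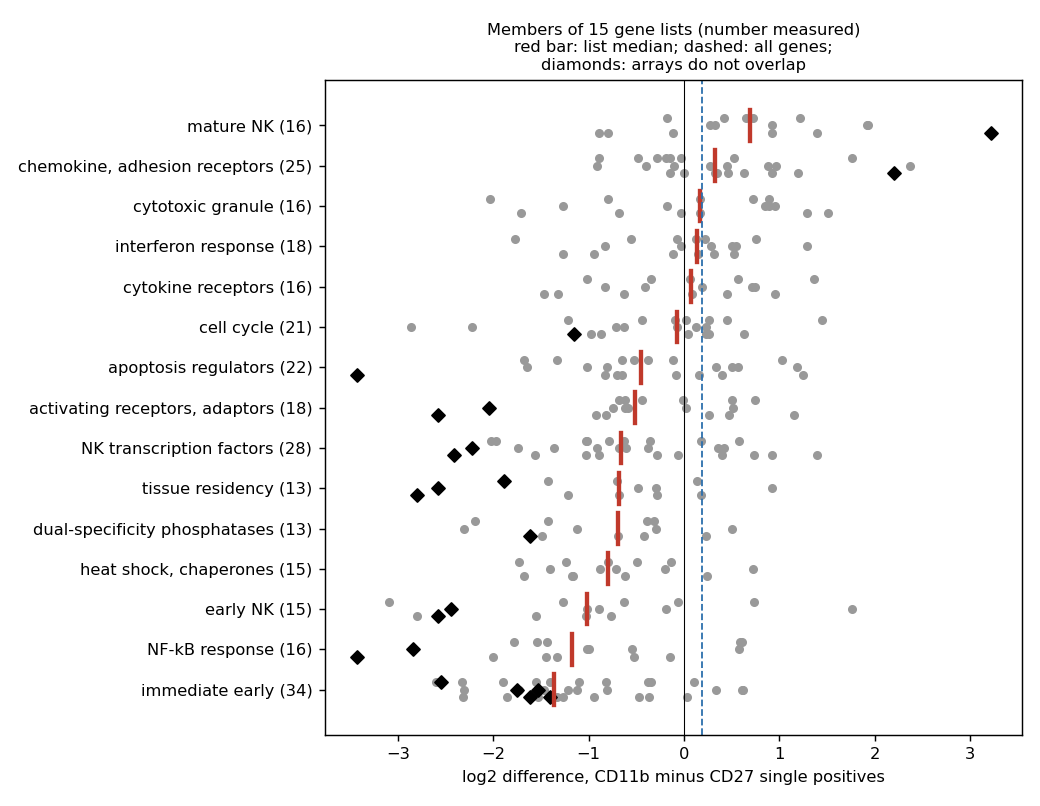
Each point is a measured gene of 1 of 15 lists, placed by its log2 difference (CD11b minus CD27 single positives); diamonds are genes whose arrays do not overlap, red bars are list medians and the dashed line is the median of all genes (0.19). Medians run from 0.69 for mature NK genes to -1.37 for immediate early genes.

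**Figure D4:**
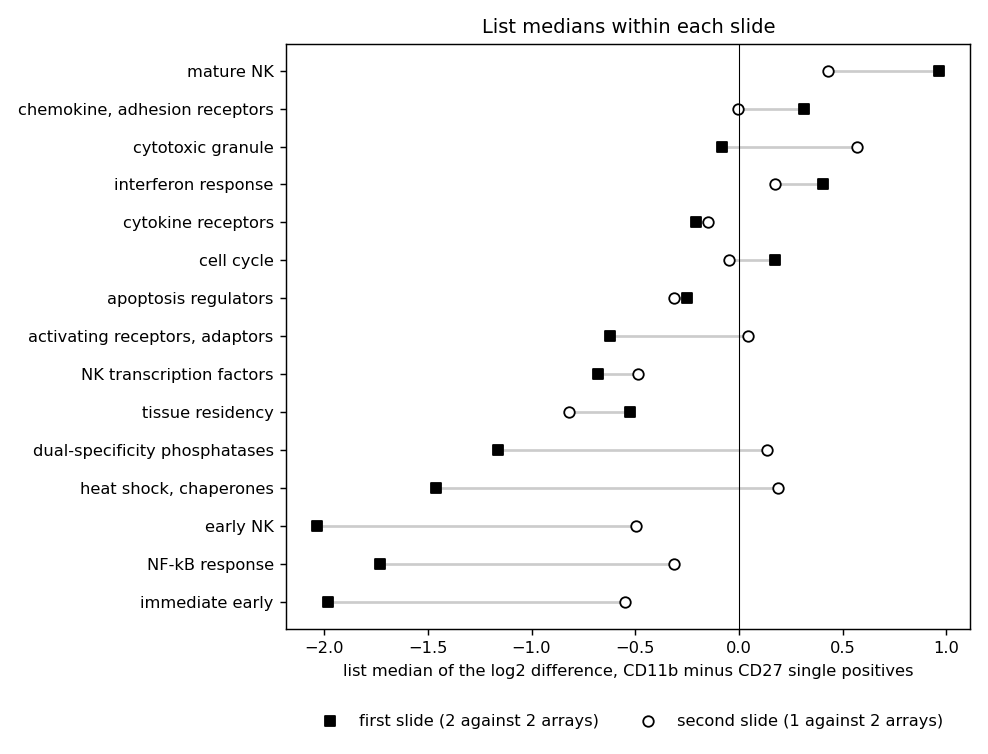
List medians of the log2 difference on the first slide (filled squares, 2 against 2 arrays) and the second (open circles, 1 against 2 arrays). Immediate early and NF-kB response medians are negative on both slides but nearer 0 on the second, heat shock and dual-specificity phosphatase medians cross 0, and tissue residency stays at -0.53 and -0.82.

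Apoptosis regulators had a median of -0.45, with 14 of 22 negative. Beside BCL2A1, the pore former BAK1 had 1.19 ± 0.45 and DIABLO, an antagonist of the inhibitors of apoptosis, had 1.03 ± 0.47. The 4 probes of DIABLO ran from -0.65 to 1.03, and the brightest gave 0.54 without CD27 single-positive replicate 1 and 1.54 without replicate 3 of that subset. The list's median was -0.10 without CD11b single-positive replicate 5.

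Cell cycle genes had a median of -0.08, with 11 of 21 negative. CCND2, a D-type cyclin of lymphocytes, separated without overlap (-1.16 ± 0.58, or -0.77 without CD11b single-positive replicate 1), from 2.26 to 4.60 in CD11b single positives and from 4.69 to 5.37 in CD27 single positives. Of 18 interferon response genes 10 were positive (median 0.14). OAS1, an antiviral RNA sensor, had 1.29 ± 0.49 and BST2, which tethers virions, had -1.27 ± 0.47, or -0.71 without CD27 single-positive replicate 1. Of 10 glycolysis genes 6 were negative (median -0.53, or -0.13 without CD27 single-positive replicate 3), and ALDOC, an aldolase, had 1.25 ± 0.48.

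Markers of other cell types were measured as lists of their own. The mean over 10 B cell genes lay between -3.65 and -1.68 in CD11b single positives and between -3.39 and -2.36 in CD27 single positives, with 9 of 10 positive (median 0.43). PAX5, the B lineage factor, was positive without overlap (0.97 ± 0.50) and BANK1, a B cell adaptor, negative (-1.95 ± 0.76). The mean over 6 T cell genes lay between -1.14 and -0.11 in CD11b single positives and between -0.87 and 0.42 in CD27 single positives (4 of 6 negative, median -0.69). The median was -1.07 without CD27 single-positive replicate 1 and -0.21 without CD27 single-positive replicate 4. Its member of lowest p was TRAT1, an adaptor of the T cell receptor (-1.52 ± 0.62). The mean over 11 monocyte and macrophage genes lay between -1.36 and -0.75 in CD11b single positives and between -1.74 and -0.84 in CD27 single positives, with 8 of 11 positive (median 0.34).

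All 7 platelet genes and all 5 erythroid genes were positive, with medians of 0.46 and 0.64, and none separated without overlap. Of all genes 60.8% were positive, and of the dimmest quartile 69.7% (median 0.33). That quartile held 3 platelet genes and 1 erythroid gene, and the next held 2 and 1. Without CD11b single-positive replicate 2 the platelet median was 0.28, and without CD27 single-positive replicate 1 the erythroid median was 0.22. The mean over the platelet genes lay between -2.00 and -1.51 in CD11b single positives and between -2.65 and -2.19 in CD27 single positives. The mean over 11 stromal and endothelial genes lay between -3.32 and -1.79 in CD11b single positives and between -4.00 and -2.84 in CD27 single positives (8 of 11 positive, median 0.34). Of these, DCN, a matrix proteoglycan, was well above background on 3 CD11b single-positive arrays and 1 CD27 single-positive array (1.16 ± 0.57). The part of these cell types in PDGFRB and COL11A1 was not tested. Plasma cell genes (2 of 6 positive, median -0.32), dendritic cell genes (6 of 8 positive, 0.21), neutrophil genes (8 of 10 positive, 0.36) and other innate lymphoid genes (1 of 9 positive, -0.76) completed the set. IRF8 is also a dendritic cell gene, and ID2 also an innate lymphoid gene.

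Double positives and double-low cells show where the 2 ends part. These steps share arrays with the comparison of the single positives, so they are given only as levels side by side. The third slide held arrays of both CD11b+ subsets and of neither CD11blo subset, so slide and the CD11b gate are partly confounded. The part of slide in these levels was not tested. PLEKHG3 averaged 1.94 ± 0.98 in CD11b single positives, 2.38 ± 1.16 in double positives, -0.55 ± 0.52 in double-low cells and -1.27 ± 0.69 in the CD27 single positives (SD; n = 5, 5, 4 and 4). Both CD11b+ subsets were high and both CD11blo subsets low. The means of double positives and double-low cells, here and below, each include a dim array. These were double-positive replicate 4 (180 units, 67.9% of probes well above background) and double-low replicate 4 (199.6 units, 81%). Both also entered the shared estimate of spread. SELPLG was likewise high in both CD11b+ subsets, with 1.71 ± 0.74 in CD11b single positives and 1.48 ± 0.76 in double positives, against -0.34 ± 0.55 in double-low cells and -0.49 ± 1.09 in CD27 single positives. PRF1 stood at 3.54 ± 0.78 in CD11b single positives and 3.36 ± 0.51 in double positives, with 0.97 ± 0.40 in double-low cells and 2.03 ± 0.78 in CD27 single positives.

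The genes on the negative side were placed otherwise, and not all alike. CRTAM averaged 0.55 ± 0.39 in CD11b single positives, 1.94 ± 1.45 in double positives, 1.84 ± 1.20 in double-low cells and 3.13 ± 0.83 in the CD27 single positives. RGS2 averaged 1.93 ± 1.54 in CD11b single positives, 3.35 ± 1.15 in double positives, 3.74 ± 0.52 in double-low cells and 4.72 ± 0.86 in CD27 single positives. BCL2A1 averaged -0.97 ± 1.81 in CD11b single positives, 1.01 ± 1.57 in double positives, 0.56 ± 0.51 in double-low cells and 2.46 ± 0.51 in CD27 single positives. The subsets of intermediate gate thus lay between both single positives for these 3 genes, with SDs that overlap their neighbours. For other genes double-low cells stood level with CD11b single positives. BTG1 averaged 1.49 ± 0.51 in CD11b single positives, 2.21 ± 0.90 in double positives, 1.33 ± 0.95 in double-low cells and 3.02 ± 0.64 in CD27 single positives. ZFP36 averaged 3.44 ± 0.85, 4.28 ± 0.42, 3.47 ± 0.38 and 4.77 ± 0.47 in the same order. IRF8 averaged about the same in double positives (1.85 ± 1.5) and CD27 single positives (1.93 ± 0.68), and lower in double-low cells (0.14 ± 0.29) and CD11b single positives (-0.29 ± 1.39). MTMR11 was highest in CD11b single positives (-1.62 ± 0.40), followed by double-low cells (-2.28 ± 0.37), double positives (-3.06 ± 1.0) and CD27 single positives (-4.15 ± 0.58).

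**Figure D5:**
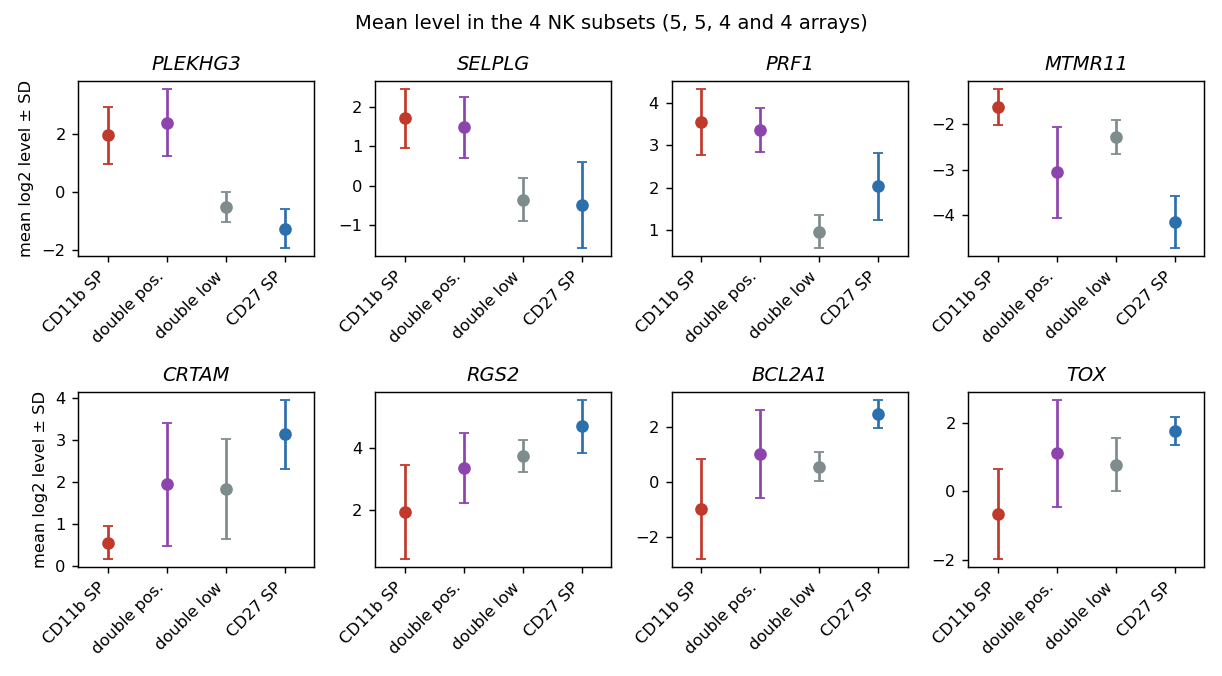
Mean log2 level with SD for 8 genes in the CD11b single positives, double positives, double-low cells and, last, CD27 single positives (5, 5, 4 and 4 arrays, left to right). Double-positive replicate 4 and double-low replicate 4 are dim arrays (180 and 199.6 units). PLEKHG3, SELPLG and PRF1 are high in both CD11b+ subsets, while CRTAM, RGS2 and BCL2A1 are lowest in CD11b single positives, highest in CD27 single positives and between these in the other two.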

How the data were processed

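Amplified RNA was hybridised with a single dye to custom Agilent arrays. Per the submitters' processing notes, Agilent Feature Extraction 10.7.1.1 quantified the images, and Partek was also used, with its version not given. Per the file headers, the signal of each spot is an intensity from which the program had subtracted background. The authors' deposited matrix of log2 values, which has the same quantiles on every array, served as an alternative.

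Of 58659 probes other than controls, 20417 (34.8%) matched 12530 genes in the species' RefSeq table (T2T-MFA8v1.1) by unversioned transcript accession. Outlier spots were dropped and spots of a probe averaged. Testing required a probe to be well above background on 4 or more of 18 NK arrays. Log2 signals, less the array's 75th percentile, entered lmFit and eBayes (trend, robust) of limma 3.58.1 under R 4.3.3, with the Benjamini-Hochberg adjustment at 0.05 over expressed probes. The fit was run on shuffled residuals of the NK arrays with known differences added. Only the size of the recovered differences was checked, so this says nothing on the share of changes called or on false calls. Normexp (offset 50), an alternative, used the spot median because the files hold no spot mean.

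The text names CD27, RGS2, CRTAM, sort markers with a probe, the 12 genes of lowest p in each direction and up to 6 members of lowest p per list. Some genes and 1 list that these rules take in are not reported here. Members, lists and tests were chosen with earlier results of these data known. The alternative without the third slide was chosen after seeing the data.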

Additional observations from a re-analysis of the deposited data

Results flagged for a closer look

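In 10 of 162 groups of arrays examined, 1 array stood so far from the others that the gap passed Dixon's 95% critical value. Chance flags about 1 in 20 such groups. Among CD11b single positives, 4 of these values came from replicate 5, the array of the 18-year-old female with the lowest array signal of the 9 (578.2 units). It held BCL2A1 at -4.20 (other arrays -0.39 to 0.05), SMURF2, a ubiquitin ligase, at -6.28 (-0.52 to 0.48), DNMBP at 2.15 (-2.96 to -1.85) and LGALS1 at 3.25 (1.34 to 1.88). CD11b single-positive replicate 3 held DUSP6 at -0.55 (2.23 to 3.0).

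Among CD27 single positives, replicate 4, labelled with the same age and sex, held PRF1 at 0.87 (2.35 to 2.52) and BAK1 at -0.84 (-2.43 to -2.30). Replicate 2 held COL11A1 at -8.08 (-5.29 to -4.83), LOC102118724 at 2.27 (0.94 to 1.07) and CD83 at 5.16 (3.52 to 3.74).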

How the results depend on the processing

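Of 2173 alternative values of the named genes, 2165 kept their direction and, where a test was run, their side of the threshold. Values within a slide carry no test and were judged by sign alone. No named gene passed in the main fit, so keeping its side means that a gene still did not pass. On the second slide CD69 was 0.088, S1PR1 -0.29 and ID3 0.46, opposite in sign to their main values. The number of probes past the threshold was 18 with array weights and 1 without the third slide. With array weights these included PLEKHG3 (adjusted p = 0.0179), MTMR11 (0.0234), DUSP5 and LOC102129449 (0.0363 each). With slide as a block 0 probes passed, and the lowest limma adjusted p rose to 0.67. Leaving out 1 array in turn gave 0 to 10 probes past the threshold, 775 to 3840 higher and 935 to 2112 lower at an unadjusted p under 0.05. It gave list medians of 0.017 to 0.55 for inhibitory receptor, -0.49 to -0.105 for apoptosis, 0.28 to 0.72 for platelet, 0.34 to 0.86 for mature NK, -1.47 to -0.36 for dual-specificity phosphatase, -0.69 to -0.13 for activating receptor, -1.07 to -0.21 for T cell, -0.70 to -0.13 for glycolysis, 0.22 to 0.88 for erythroid, 0.17 to 0.63 for chemokine and adhesion receptor, -0.41 to -0.12 for G protein, -0.98 to -0.38 for innate lymphoid, 0.029 to 0.44 for TGF-beta, 0.19 to 0.58 for B cell, 0.19 to 0.50 for monocyte, 0.19 to 0.57 for neutrophil and 0.14 to 0.59 for stromal genes. Medians of cytotoxic granule (-0.036 to 0.53), chemokine and cytokine (-0.083 to 0.38), cytokine receptor (-0.21 to 0.08), cell cycle (-0.38 to 0.023), interferon (-0.0020 to 0.29), plasma cell (-0.60 to 0.064) and dendritic cell genes (-0.052 to 0.58) took both signs. Probes higher at that p numbered 290 among matched genes with 1 probe each, 4364 with array weights and 4430 without the third slide. Those lower numbered 2349 with the donor label as a block, 354 among matched genes, 2458 with array weights and 2275 without the 2 dimmest NK arrays.

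With the replicate number as a replicate block, 0 probes passed, and 1672 higher and 1686 lower had an unadjusted p under 0.05. Deviations of same-numbered arrays correlated at 0.127, 0.318, 0.161 and 0.0117. Replicates numbered 4 differ in age and sex, so the numbers do not pair the samples throughout. The arrays that share the label of an 18-year-old female correlated at 0.141. By donor label all 4 pairs exceeded 0.1, but the replicate 3 pair carries ages of 11 and 10 years. Unmatched pairs also did so: CD11b single-positive replicate 5 with CD27 single-positive replicate 3 (0.204), and replicate 4 with replicate 2 (0.13). The other unmatched pairs lay below 0.1. With the donor label as a random effect, the consensus correlation was 0.0686. The labels name no animals, and the donor-label block is given as an alternative. Neither the replicate block nor the donor-label block changed the call of a named gene.

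Scaling by quantiles, the array median, normexp or the deposited table kept the sign of every list median except that of cell cycle genes (0.05 with normexp, against -0.08). List medians on the first slide, where all genes had 0.50 and the dimmest quartile 0.92, were -2.03 for early NK, 1.04 for inhibitory receptor, 0.73 for chemokine and cytokine, -1.98 for immediate early, 0.12 for T cell, 1.18 for dendritic cell, 0.91 for platelet and 0.91 for stromal genes. On the second, where all genes had 0.19, they were -0.50 for early NK, 0.57 for cytotoxic granule, 0.042 for activating receptor, 0.085 for inhibitory receptor, -0.0022 for chemokine and adhesion receptor, -0.005 for G protein, -0.55 for immediate early, -0.31 for NF-kB, 0.14 for dual-specificity phosphatase, 0.19 for heat shock, 0.027 for glycolysis, -0.21 for innate lymphoid and 0.19 for platelet genes. With slide as a block they were -1.67 for early NK, -0.29 for tissue residency and -0.29 for innate lymphoid genes. Without the third slide they were -1.57 for early NK, 0.62 for inhibitory receptor, -0.29 for tissue residency, -0.16 for innate lymphoid and 0.77 for platelet genes. The cause of these differences was not tested.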
